A study of Mus musculus with 6 samples.

Results

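The Bcl2 family genes described here are 10 genes that set the threshold for mitochondrial cell death: the BH3-only genes Hrk, Bad, Bid, Bik, Bmf and Bcl2l11, the survival genes Bcl2, Bcl2l1 and Mcl1, and the effector gene Bak1. They were chosen by name, with earlier results of these data known, and every non-control probe whose RefSeq accession belongs to one of them was used, which gave 13 of the 39429 probes of the array. Bad, Bcl2l1 and Mcl1 had 2 probes each and the other 7 genes had 1. All 13 probes were well above background on all 6 arrays, so all 10 members entered the test, out of 14906 genes tested. The RNA came from heads, first branchial arch included, of 9.5-day mouse embryos. Embryos null for Arid3b, whose product binds AT-rich DNA, were compared with wild type embryos, with 3 arrays per genotype and RNA pooled from 4 embryos for each array. The labels give no further alleles, strain, sex or treatment for either genotype, and they do not say whether the pools came from separate litters. The p-values therefore speak of the spread among the pools alone, which may be technical.

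Proteins of this family meet at the outer mitochondrial membrane. BH3-only proteins sense damage, loss of growth factors or other stress and bind the survival proteins through their BH3 helix, and some of them also switch on the effectors directly. Effectors such as the product of Bak1 then open the membrane and release cytochrome c, which starts the caspase cascade. In the developing nervous system the balance between these proteins is known to decide the death of surplus neurons, and loss of Mcl1 or Bcl2l1 in mice is lethal before birth.

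Hrk and Bad are shown by sequence because they had the largest rise and the largest fall among the members. The lines give the 250 bases before the RefSeq start of each gene in GRCm38.p6, 5′ to 3′, with matches to any of 7 motifs in capitals. Of the RefSeq windows given, 15 belonged to 9 of the 10 members, and the first of the 2 windows of Bad is printed.
Hrk, chr5:118169514-118169763, + strand: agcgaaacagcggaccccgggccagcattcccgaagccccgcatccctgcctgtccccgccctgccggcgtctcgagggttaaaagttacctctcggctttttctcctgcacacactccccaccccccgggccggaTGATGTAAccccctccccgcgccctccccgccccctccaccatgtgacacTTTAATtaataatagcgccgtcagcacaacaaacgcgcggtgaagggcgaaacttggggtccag
Bad, chr19:6941611-6941860, + strand: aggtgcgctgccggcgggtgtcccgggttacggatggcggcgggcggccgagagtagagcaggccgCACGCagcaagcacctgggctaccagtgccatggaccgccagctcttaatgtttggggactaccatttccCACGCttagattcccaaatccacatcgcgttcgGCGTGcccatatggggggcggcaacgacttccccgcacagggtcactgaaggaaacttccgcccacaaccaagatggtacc

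The motifs were searched on both strands in all 32851 RefSeq windows of this length, and matches are letters in a window, not measured sites. The Hrk window held the C/EBP-ATF composite core (TGATGNAA), which starts 114 bases before the start and is present in 3.45% of all windows. It also held the AT-rich ARID3 motif (ATTAAA, here on the opposite strand), present in 12.7% of all windows. No other member window held either of these motifs. The Bad window held 3 copies of the hypoxia response core (ACGTG or GCGTG), which is present in 38.6% of all windows and in 4 of the 15 member windows. The forkhead motif (TGTTTAC, 3.17% of all windows) was found in 1 member window, of Bcl2l11. The CCAAT box (33.8% of all windows) was found in 5 member windows, of Bmf, Bcl2l11 and Bad. The AP-1 motif (TGANTCA, 6.75%) and the TATA box (TATAAA, 12.4%) were found in none of the 15.

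The arrays held between 67.9% and 70.3% of non-control spots well above background, and no spot was saturated. Signal of Arid3b was lower on every null array than on any wild type array at all 3 of its probes (log2 differences of -1.19, -1.37 and -2.33), and the labels do not say whether a probe lies in the deleted part. Each slide, and each scan, held the null and the wild type array of 1 replicate number, the null array always second and the wild type array first. Genotype and place on the slide cannot be told apart. All 7 markers of head and first arch were well above background on all 6 arrays. Of 5 markers of the posterior trunk none passed the filter on dim probes, but wild type array 2 stood apart. Cdx2, a posterior homeobox gene, was at -8.89, -9.03 and -9.46 on null arrays 1, 2 and 3, against -9.10, -2.66 and -9.17 on the wild type arrays, and Hoxa10 was at -8.61, -8.81 and -9.18, against -8.88, -4.57 and -8.94. Both were above background on wild type array 2 alone. The heart gene Myl7 was at -6.58, -7.70 and -7.20 on the null arrays, against -7.94, -2.18 and -4.29 on the wild type arrays. The part of trunk and heart tissue in the members' values was not tested, and values without wild type array 2 are given beside the counts below. Levels below are log2 of the background-subtracted signal relative to the 75th percentile of the array. Differences are null minus wild type on that log2 scale, ± the standard error of the limma fit (n = 3 arrays for each genotype), and a gene was called changed at a Benjamini-Hochberg adjusted p under 0.05 over all genes tested.

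Of the 10 members, 3 were called changed (30.0%), against 23.5% of all genes tested. Hrk and Bmf rose (2 of 10, where 12.3% of all genes were called higher in null heads), and Bad fell (1 of 10, where 11.2% of all genes were called lower). With 10 members these counts lie near the background, and nothing particular to the family is read from them. All 3 calls were among the 6 BH3-only genes, where 23.5% of all genes were called, and the median difference of the 6 was 0.43. The summed signal of these 6 genes alone, relative to the same percentile of each array, went the other way. It was 6.48 to 6.61 in null heads, against 7.19 to 8.56 in wild type heads, and Bad, which fell, was the brightest of the 6. The sum used the brighter Bad probe, with a wild type mean of 2.39, where the dimmer Bad probe had -1.99. It therefore depends on how bright the chosen probe is. It also leaves out Bbc3 and Pmaip1, BH3-only genes that rose, as given below. Neither the median nor the sum shows whether BH3-only signal rose or fell as a whole. The 3 survival genes had a median of -0.17 and no call, and Bak1 was at -0.31, while the median over all genes was -0.04. Without wild type array 2, Hrk (3.21) and Bad (-0.97) were called and Bmf was not (2 of 10 members, against 14.6% of all genes), and the medians were 0.43 for BH3-only genes and -0.12 for survival genes. Within slides 1, 2 and 3 the BH3-only median was 0.37, 0.33 and 0.45, and the survival median was -0.33, -0.13 and -0.30. The arrays of the 2 genotypes did not overlap in 7 of 10 members (70.0%, against 42.4% of all genes), with 4 of them higher and 3 lower in null heads. Tested as single probes, 4 of the 13 were called (30.8%), against 18.0% of all probes kept.

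**Figure D1:**
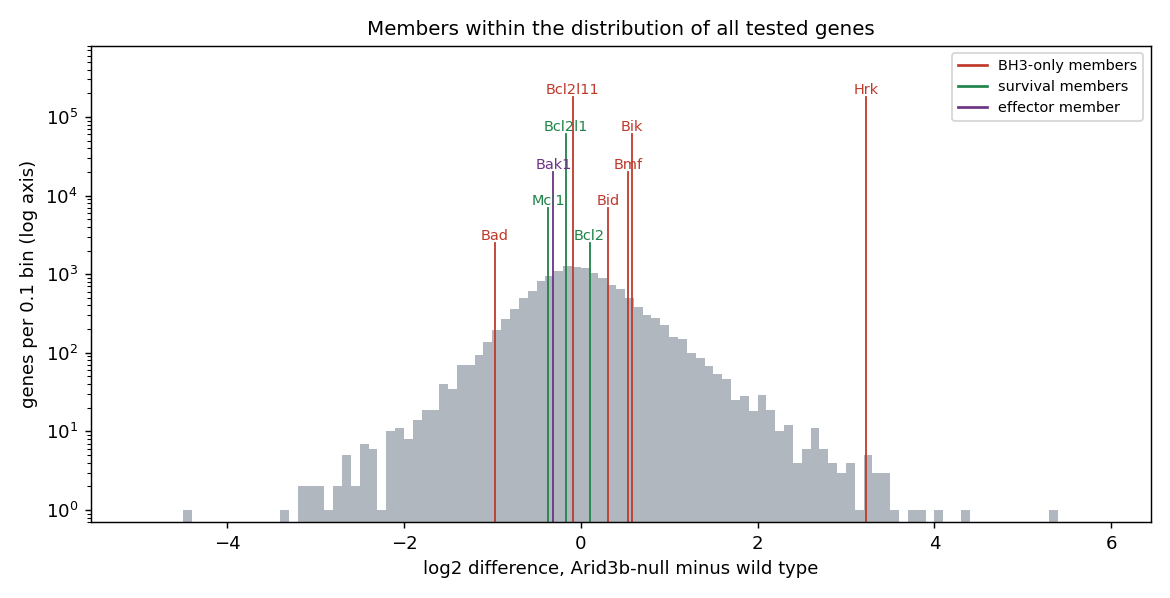
Grey bars count all 14906 tested genes by log2 difference, null minus wild type, in bins of 0.1 on a log axis, and vertical lines mark the 10 members, coloured by role, with heights that only make room for the names. Hrk stands at 3.23, far from the other members, which lie between -0.97 and 0.58.

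Hrk encodes harakiri, a BH3-only protein that binds Bcl2 and Bcl2l1 and is known from neurons deprived of growth factor. Its level was -1.17, -1.55 and -1.24 on null arrays 1, 2 and 3, against -4.68, -4.58 and -4.38 on the wild type arrays. In scanner units the signal was 308, 214 and 415 on the null arrays, against 26.5, 29.9 and 31.7 on the wild type arrays. Every null array lay far above every wild type array, and wild type Hrk signal was dim though well above background. Hrk was 9.37-fold higher in null heads (3.23 ± 0.16, 95% interval 2.85 to 3.61, adjusted p of 3.11e-04). The difference within slides 1, 2 and 3 was 3.51, 3.03 and 3.14, and the adjusted p with the slide as a block was 0.00316. Among all 14906 genes it ranked 16 by the size of the rise and 8 by the p-value. The normexp alternative corrected the raw median signals with an offset of 50 and then quantile normalized them. That offset is more than the wild type Hrk signal. The difference was then 1.83, still called, and which of these steps moved it was not tested. The other 15 alternatives gave 3.15 to 3.34, and the adjusted p over all 16 ran from 4.22e-05 to 0.00565.

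Bad encodes a BH3-only protein whose activity is held down by phosphorylation in cells that receive growth factor. Its brighter probe had levels of 1.38, 1.44 and 1.42 on the null arrays, against 2.56, 2.39 and 2.21 on the wild type arrays. The null arrays agreed closely and lay below every wild type array. Bad was 1.96-fold lower in null heads (-0.97 ± 0.14, 95% interval -1.30 to -0.64, adjusted p of 0.00467), and the difference within slides 1, 2 and 3 was -1.18, -0.95 and -0.79 (adjusted p of 0.0124 with the slide as a block). The dimmer probe had levels of -2.72, -2.92 and -2.41 on the null arrays, against -1.94, -2.04 and -1.97 on the wild type arrays. It pointed the same way, with no overlap between the genotypes, and fell by 0.70 ± 0.17 with an adjusted p of 0.0332 over all probes. Bad was called under all 16 alternatives, of which 1 averaged both probes and the others used the brighter one (-1.06 to -0.81, adjusted p of 5.53e-04 to 0.0294). The dimmer probe was no longer called when null replicate 1 or 2 was left out (0.120 and 0.110), when wild type replicate 1 or 2 was left out (0.0937 and 0.0825), or when dim probes were kept (0.0885).

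Bmf encodes a BH3-only protein held at the cytoskeleton by dynein light chain until stress or detachment frees it. Its level was 1.24, 1.26 and 1.06 on the null arrays, against 0.75, 0.61 and 0.58 on the wild type arrays. Every null array lay above every wild type array. Bmf was 1.45-fold higher in null heads (0.54 ± 0.13, 95% interval 0.23 to 0.85, adjusted p of 0.0267), with 0.49, 0.65 and 0.48 within slides 1, 2 and 3. The size was steady, at 0.48 to 0.60 over the 16 alternatives, but the call was not. Leaving out null replicate 1, 2 or 3 gave adjusted p-values of 0.112, 0.0964 and 0.0502, leaving out wild type replicate 1 or 2 gave 0.0508 and 0.0892, and keeping dim probes gave 0.0586. With the slide as a block the adjusted p was 0.0384 over genes, and 0.0635 over probes.

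Bik encodes a BH3-only protein that sits mainly at the endoplasmic reticulum. Its level was -3.74, -3.88 and -3.48 on the null arrays, against -4.56, -4.28 and -3.98 on the wild type arrays. The genotypes did not overlap, but the wild type arrays differed among themselves by as much as the means did. The difference of 0.58 ± 0.19 (95% interval 0.12 to 1.03) did not pass, with an adjusted p of 0.0710, and was 0.82, 0.41 and 0.50 within slides 1, 2 and 3. It passed with the replicate number as a block (adjusted p of 0.0437), with array weights (0.0109) and without wild type replicate 3 (0.72, 0.0218). Over probes the block left it at 0.0685. With normexp and its offset the difference was 0.20.

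Bid encodes the BH3-only protein that caspase 8 cleaves to carry a death receptor signal to mitochondria. Its level was -0.23, -0.13 and 0.01 on the null arrays, against -0.48, -0.38 and -0.41 on the wild type arrays. The genotypes did not overlap, yet the difference of 0.31 ± 0.13 (95% interval 0.00 to 0.61) did not pass, with an adjusted p of 0.128, and was called under none of the 16 alternatives. Within slides 1, 2 and 3 it was 0.25, 0.26 and 0.42. Bcl2l11 encodes Bim, a BH3-only protein that binds all survival members and is known for neuron and lymphocyte death. Its level was -2.33, -2.50 and -2.36 on the null arrays, against -2.33, -2.39 and -2.18 on the wild type arrays, and the genotypes overlapped. The difference was -0.09 ± 0.13 (95% interval -0.40 to 0.21, adjusted p of 0.642), and 0.00, -0.11 and -0.18 within slides 1, 2 and 3.

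**Figure D2:**
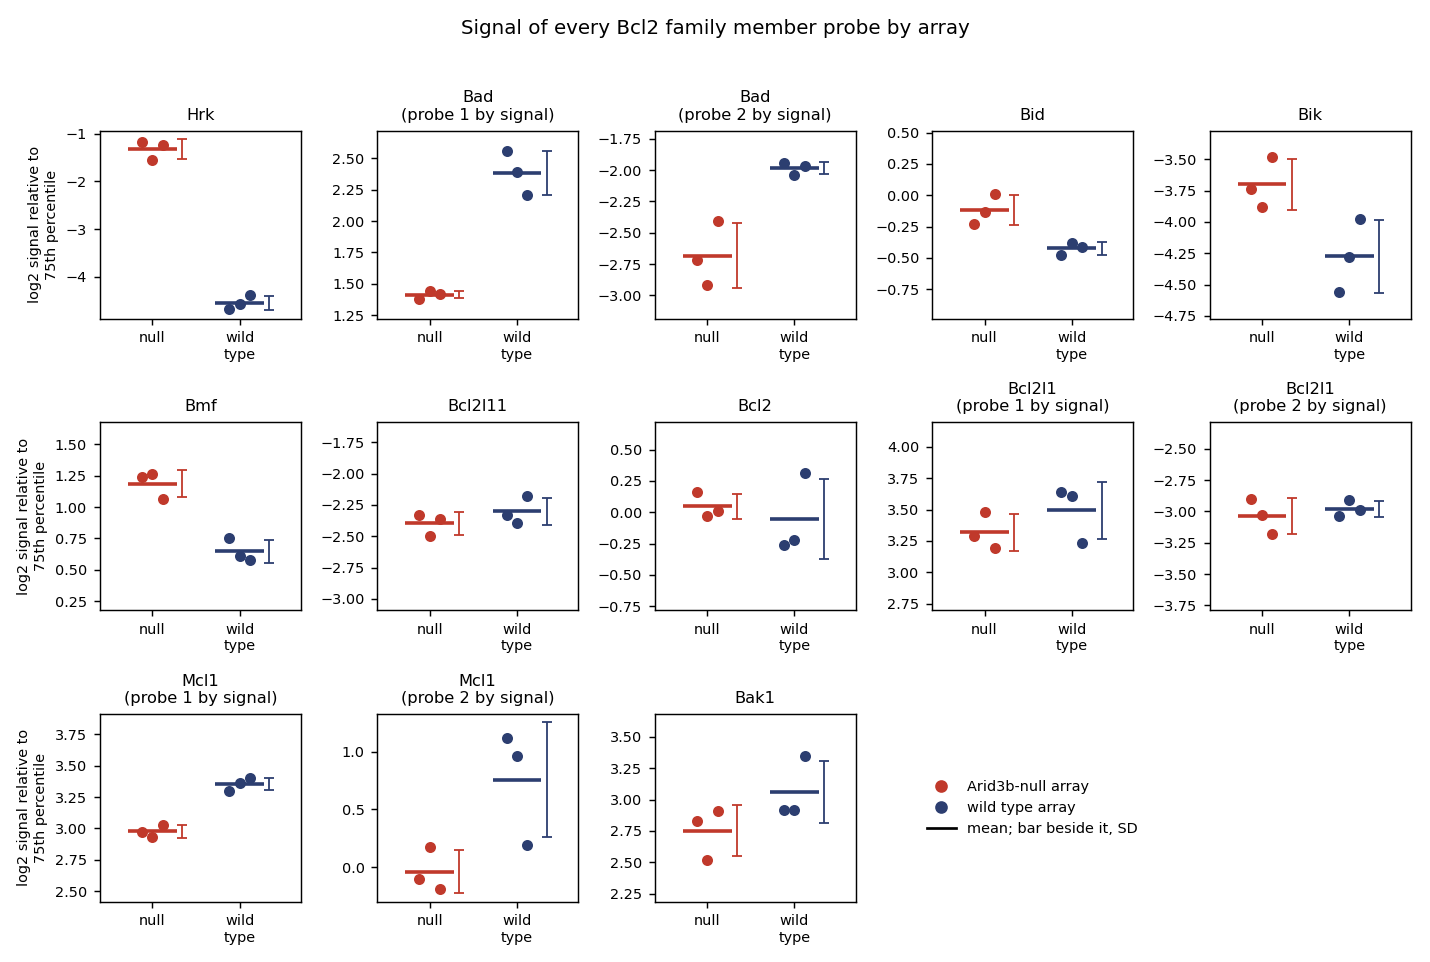
Each panel shows 1 probe of a member, with the log2 signal relative to the 75th percentile of each array on its own vertical scale, points for the 3 null arrays (left) and the 3 wild type arrays (right), a line at the mean and a bar of 1 SD. Hrk, Bmf, Bik and Bid show every null array above every wild type array, and both Bad probes, both Mcl1 probes and Bak1 show the opposite order.

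None of the 3 survival members passed the test. Bcl2l2, a survival gene of the wider family list, was at 0.45 ± 0.14 and did not pass either (adjusted p of 0.0559). Bcl2 encodes the founding survival protein, which is abundant in neural tissue of the embryo. Its level was 0.16, -0.03 and 0.01 on the null arrays, against -0.26, -0.22 and 0.31 on the wild type arrays. Wild type array 3 lay above all null arrays and the other 2 wild type arrays below them. The difference was 0.10 ± 0.19 (95% interval -0.34 to 0.54, adjusted p of 0.730), and within slides 1, 2 and 3 it was 0.42, 0.19 and -0.30. It ran from 0.00 to 0.29 over the 16 alternatives, with no call.

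Bcl2l1 encodes Bcl-x, whose long form protects embryonic neurons and blood cells and whose short form promotes death. Its brighter probe had levels of 3.29, 3.48 and 3.19 on the null arrays, against 3.64, 3.61 and 3.23 on the wild type arrays. Its dimmer probe had levels of -2.90, -3.03 and -3.18 on the null arrays, against -3.04, -2.91 and -2.99 on the wild type arrays. The genotypes overlapped at both probes, and neither probe is annotated to a splice form in the files used here. The brighter probe differed by -0.17 ± 0.16 (95% interval -0.56 to 0.21, adjusted p of 0.483) and the dimmer by -0.06 ± 0.14 (adjusted p of 0.828 over all probes). Within slides 1, 2 and 3 the brighter probe differed by -0.35, -0.13 and -0.04. Quantile normalization brought it to -0.00. The gene ranged from -0.30 to -0.00 over 16 alternatives, of which 1 averaged both probes and the deposited value table held only the dimmer one (-0.09).

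Mcl1 encodes a short-lived survival protein that binds Bim, Noxa and the product of Bak1. Its brighter probe had levels of 2.97, 2.93 and 3.03 on the null arrays, against 3.30, 3.36 and 3.40 on the wild type arrays. Both genotypes were tight and did not overlap. The difference of -0.37 ± 0.12 (95% interval -0.66 to -0.09) did not pass, with an adjusted p of 0.0637 (0.0899 with the slide as a block), and was -0.33, -0.43 and -0.37 within slides 1, 2 and 3. The dimmer probe had levels of -0.10, 0.17 and -0.19 on the null arrays, against 1.12, 0.96 and 0.19 on the wild type arrays. Its wild type arrays were far apart, with array 3 just above the highest null array, and its difference of -0.79 ± 0.26 had an adjusted p of 0.0797 over all probes. In the deposited value table, which holds only this probe of Mcl1, it was -0.80. Mcl1 was called lower in 3 of 16 alternatives: as the mean of both probes (-0.58, adjusted p of 0.0334), with an intensity trend and robust variance (0.0329) and with array weights (0.0159). Quantile normalization brought the brighter probe to -0.21, and the dimmer probe was called without wild type replicate 3 (-1.08, adjusted p of 0.00759 over all probes) and with array weights (adjusted p of 0.00378).

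Bak1 encodes an effector that forms pores in the outer mitochondrial membrane. Its level was 2.83, 2.52 and 2.91 on the null arrays, against 2.92, 2.92 and 3.35 on the wild type arrays. The highest null array and the lowest wild type arrays were nearly equal, so the lack of overlap rests on 0.01 log2 units. The difference of -0.31 ± 0.18 (95% interval -0.74 to 0.12) did not pass, with an adjusted p of 0.267, and it was -0.08, -0.40 and -0.43 within slides 1, 2 and 3. It was called under none of its 15 alternatives.

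**Figure D3:**
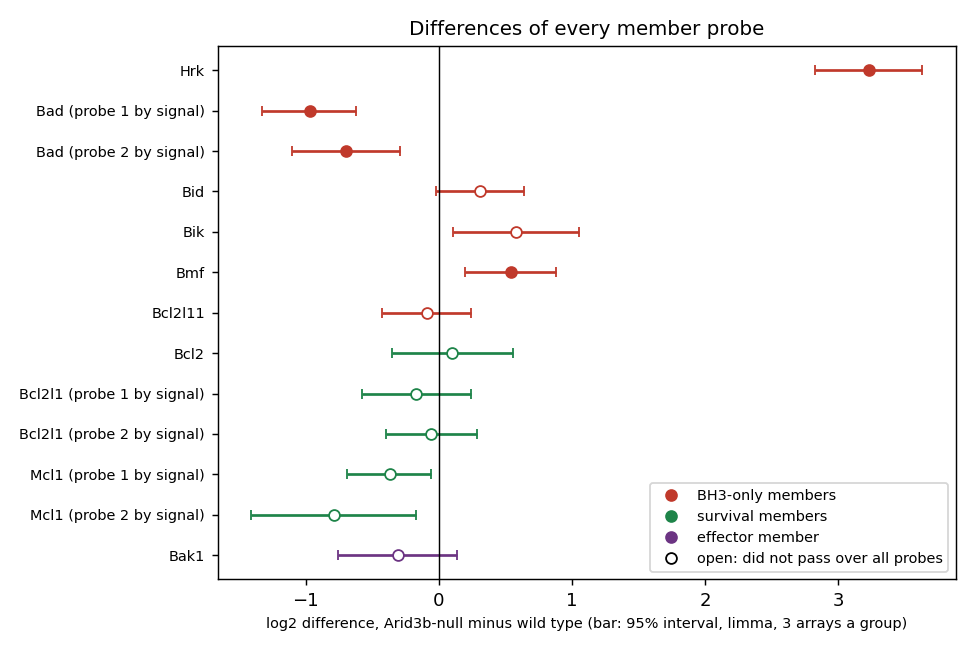
Points give the log2 difference, null minus wild type, of every member probe, with the 95% interval from limma over 3 arrays per genotype, coloured by role and filled where the probe passed over all probes kept. Hrk (3.23) lies apart on the right, both Bad probes (-0.97 and -0.70) lie to the left of 0, and the intervals of Bid, Bcl2l11, Bcl2, both Bcl2l1 probes and Bak1 include 0.

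The rest of the family was described from a list of 16 genes, of which 12 were tested. Of these, 4 rose and none fell, with a median of 0.14, where 12.3% of all genes were called higher and 11.2% lower. All 4 encode proteins with a BH3 domain, as do genes of the list without a call, Bax among them. The domain by itself therefore does not mark out the 4 that rose. Whether the BH3-only genes of the list differ from its other genes was not tested. Bnip3, a mitochondrial receptor for mitophagy that low oxygen is known to induce, was 5.23-fold higher (2.39 ± 0.19, adjusted p of 9.07e-04), and its other 2 probes also gave positive differences. Its relative Bnip3l was 2.03-fold higher (1.02 ± 0.19, adjusted p of 0.0112). Pmaip1, which encodes Noxa, the BH3-only partner of Mcl1, was 2.46-fold higher (1.30 ± 0.16, adjusted p of 0.00297). Bbc3, which encodes Puma, was 1.71-fold higher (0.77 ± 0.17, adjusted p of 0.0197). Bnip3 and Pmaip1 were called under all 16 alternatives. Leaving out null replicate 1 brought Bnip3l to 0.0507 and Bbc3 to 0.0741, and Bbc3 also missed the threshold when null replicate 2 (0.0662) or wild type replicate 2 (0.0584) was left out. Without null replicate 1 only 2 of the 12 were called, and without wild type replicate 2 it was 3, with a median of 0.30. The effector Bax was at -0.02 ± 0.15, Bcl2l13 at -0.16 ± 0.29 and Bcl2l12 at -0.28 ± 0.14, none past the threshold. Bcl2a1d and Bcl2l10 did not pass the filter on dim probes, and no probe was matched to Bcl2a1a or Bcl2a1b. The copies of Bcl2a1 are nearly identical and a probe may not tell them apart.

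A list of apoptosome, caspase and inhibitor genes also held mitochondrial channel genes and genes that act downstream of death receptors. It showed 6 falls and 2 rises among 23 tested, where 11.2% of all genes were called lower and 12.3% higher. Its median was -0.25. Cycs, which encodes the cytochrome c that effectors release and that also carries electrons in respiration, was 2.21-fold lower (-1.14 ± 0.21, adjusted p of 0.0101, other probe -1.27). Aifm1, a mitochondrial flavoprotein that can move to the nucleus in dying cells, was 1.65-fold lower (-0.73 ± 0.16, adjusted p of 0.0176). Casp2, an initiator caspase, was 1.60-fold lower (-0.67 ± 0.15, adjusted p of 0.0193), and Birc2, an inhibitor of apoptosis with ubiquitin ligase activity, was 1.60-fold higher (0.68 ± 0.15, adjusted p of 0.0178). The other 4 calls, named after their values were seen, were the mitochondrial nuclease gene Endog (-0.70), the death receptor adaptor gene Fadd (-0.58) and Birc6 (-0.53), which fell, and the apoptosome scaffold gene Apaf1 (0.63), which rose. The brightest genes without a call were the mitochondrial channel genes Vdac1 (0.09 ± 0.16) and Vdac2 (-0.06 ± 0.15) and Birc5 (-0.53 ± 0.17), which encodes survivin. Only Cycs was called under all its alternatives. The count of 8 calls fell to 2 without null replicate 1, 2 without null replicate 2 and 3 without null replicate 3. It was 2 without wild type replicate 1, 1 without wild type replicate 2 and 4 when dim probes were kept. In the deposited value table, where Casp2 and Birc6 were not tested, it was 5.

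Genes known to act on the members were described from a list of 23 tested genes, of which 5 rose and 4 fell, where 12.3% of all genes were called higher and 11.2% lower. Their median was -0.19. Ddit3, the stress factor CHOP that is known to raise Bcl2l11, was 5.65-fold higher (2.50 ± 0.16, adjusted p of 4.65e-04). Foxo3, a forkhead factor known to raise Bcl2l11, was 4.07-fold higher (2.03 ± 0.25, adjusted p of 0.00307), and 0.86 with normexp. The only Foxo3 probe was dim on the wild type arrays, at -5.23, -5.32 and -4.78, though well above background. Bcl2l11 itself stood at -0.09, as given above, and a link of Ddit3 or Foxo3 to its level was not tested. Btrc, a ubiquitin ligase subunit that can mark Bim for degradation, was 3.25-fold lower (-1.70 ± 0.21, adjusted p of 0.00305, other probe -1.14). Dynll1, the dynein light chain that tethers Bim, was 2.10-fold lower (-1.07 ± 0.14, adjusted p of 0.00365). These 4 genes were called under all 16 alternatives. The other 5 calls, named after their values were seen, were the kinase genes Pim1 (1.18) and Pim3 (1.13), whose products phosphorylate Bad, and Foxo1 (0.81), which rose, and Trp53 (-0.65), whose product p53 raises Pmaip1 and Bbc3, and Dynll2 (-0.51), the light chain that tethers Bmf, which fell. The brightest others did not pass: the survival kinase genes Akt1 (-0.52 ± 0.23) and Akt2 (-0.21 ± 0.14), and Huwe1 (0.05 ± 0.16), whose product marks Mcl1 for degradation. Without null replicate 1 the count of 9 calls fell to 5, and without wild type replicate 2 it was 7.

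**Figure D4:**
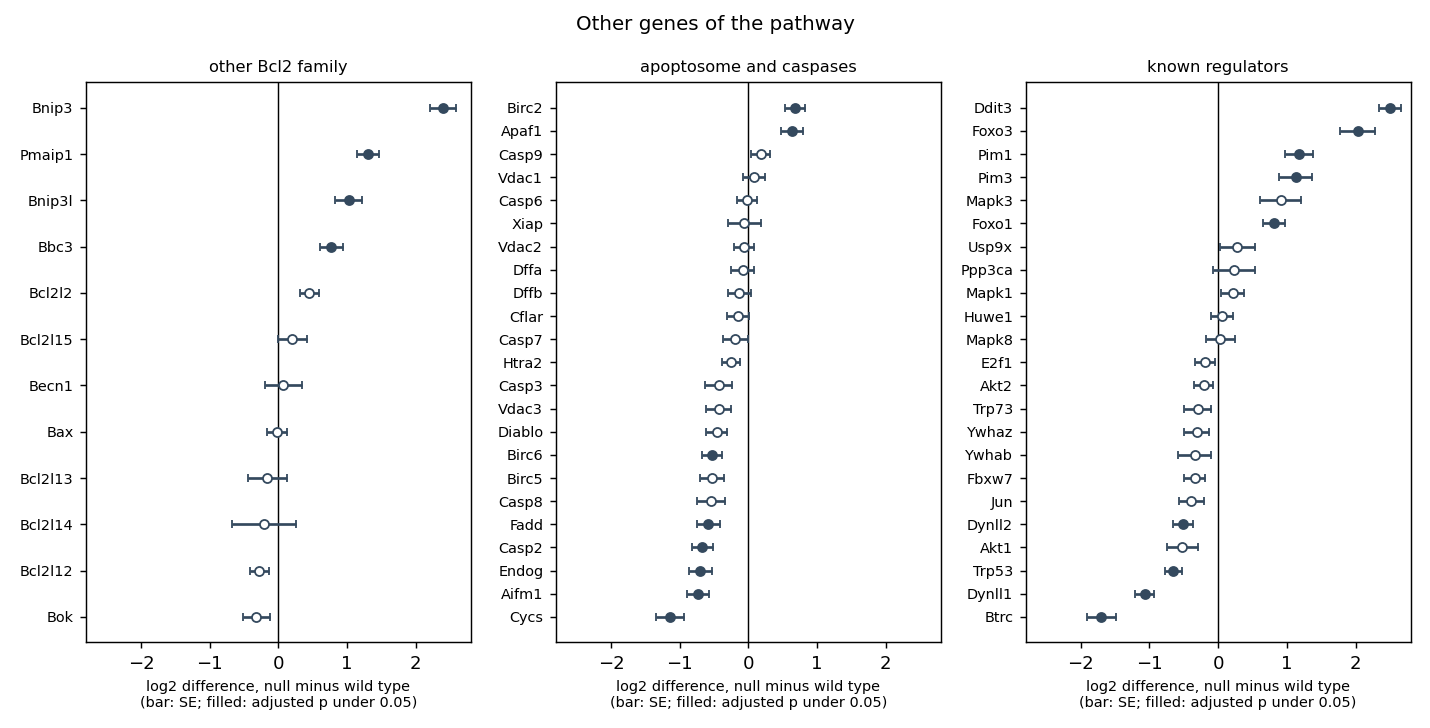
The 3 panels give the log2 difference, null minus wild type, with its standard error, for tested genes of the other Bcl2 family, of the apoptosome and caspases, and of known regulators; filled points passed the threshold. The filled points are 4 rises in the left panel, 2 rises and 6 falls in the middle panel, and 5 rises and 4 falls in the right panel.

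Some markers of cell types that the heads could hold were also called, where 12.3% of all genes were called higher and 11.2% lower. A count of 1 among 7 markers lies near those shares. In bulk tissue, fewer cells of a type and less RNA per cell cannot be told apart. Of 6 neuron markers 3 fell and none rose, with a median of -0.77 and a summed level of 5.08 to 6.22 times the 75th percentile on null arrays, against 7.94 to 10.7 on wild type arrays. The brightest were Tubb3 (-0.61 ± 0.23, not called), Elavl3 (-1.27 ± 0.16, lower) and Stmn2 (-0.50 ± 0.21, not called). Hrk, known from neurons, rose in the same arrays, and the part of neuron content in any member's value was not tested. Of 5 tested macrophage markers 2 fell and none rose, with a summed level of 1.49 to 2.52 in null heads, against 1.65 to 3.49 in wild type heads. Of 7 erythroid markers 1 fell, with sums of 419 to 850 in null heads, against 532 to 734 in wild type heads. None of 5 endothelial markers (sums of 5.97 to 7.20 in null heads, against 6.41 to 9.63 in wild type heads) and none of 4 tested heart markers (0.976 to 1.36 in null heads, against 0.778 to 1.93 in wild type heads, the highest on array 2) was called. Among the heart markers Tnnt2 was at -5.41, -5.93 and -5.49 on the null arrays, against -5.69, -2.50 and -3.96 on the wild type arrays. Of the 7 head and first arch markers 1 rose and 2 fell, with sums of 31.7 to 35.7 in null heads, against 27.3 to 28.7 in wild type heads. Named after their values were seen, the 1 that rose was Otx2 (0.57 ± 0.16), the brightest of the 7. The 2 that fell were Dlx2 (-1.13 ± 0.17) and Barx1 (-2.34 ± 0.25). The part of these cell types in the members' values was not tested either.

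Over the alternatives, which changed the processing or left out 1 array, Hrk and Bad were called each time. Bmf was called in 10 of 16, Bik and Mcl1 in 3 of 16 each, and Bid, Bcl2l11, Bcl2, Bcl2l1 and Bak1 in none.

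**Figure D5:**
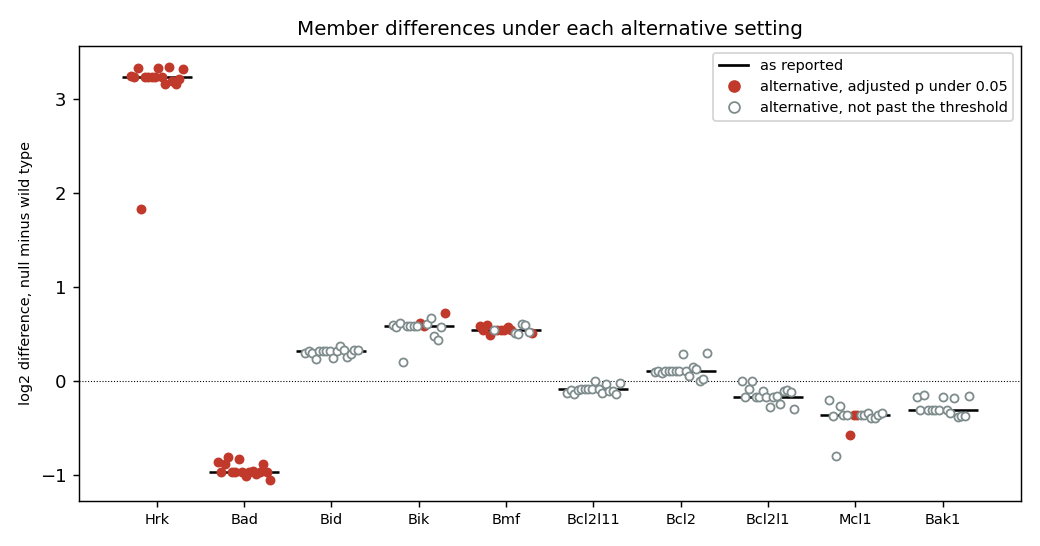
Each column shows 1 member, with a black line at the reported log2 difference, null minus wild type, and points for each alternative setting, filled where the adjusted p was under 0.05. The single low Hrk point at 1.83 is the normexp background correction, and points of Bcl2 and Bcl2l1 reach 0.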

How the data were processed

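RNA was labelled with Cy3 and hybridised to one-colour Agilent arrays, per the labels' protocols. The deposited scanner files hold spot intensity after background subtraction and spatial detrending, and raw median intensity of spot and background, made with version 10.7.3.1 of Feature Extraction as the headers of the deposited files state. A deposited table of log2 values, whose making neither labels nor headers describe, served as an alternative; its column medians were 6.76 to 6.77, and its exact scaling stays unknown.

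Log2 processed signal was set relative to the 75th percentile of non-control spots on each array. Control spots were dropped, as were the 84 to 156 spots that each file marks as outliers, and repeat spots were averaged. Probes were named by RefSeq accession through a GRCm38 table: 26424 had 1 symbol, 0 several and 13005 none. The array design names another build (mm9), so only the promoter windows carry coordinates, in GRCm38.p6. The filter on dim probes asked for a signal well above background on every array of 1 genotype or both, and for values on 5 or more arrays; it passed 26288 probes, of which the brightest stood for each of 14906 genes. Differences were fitted with limma 3.58.1 in R 4.3.3 (lmFit, eBayes, Benjamini-Hochberg) over all genes, and over all kept probes for single probes. The steps were tested on simulated data.

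The members, gene lists, motifs and rules were chosen with earlier results of these data known. The text names all members and Arid3b, of each pathway list up to 4 called genes with the smallest p and 3 others with the highest signal, and of marker lists the 3 brightest, given here for neurons. Normexp used median signals, since the files analysed hold no mean signals, with an offset of 50, and was followed by quantile normalization. Each replicate number is 1 slide, so a block on either is the same fit.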

Additional observations from a re-analysis of the deposited data

How the results depend on the processing

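Across 14906 genes 3506 were called; the count was 2270 without the filter on dim probes, 6685 with array weights, 1272 at an adjusted p under 0.01, and 1516 to 5199 when 1 array was left out (lowest without null replicate 1, highest without wild type replicate 3). The 3 member calls became 5 with array weights, and the 4 member probe calls became 2 without the filter on dim probes, 7 with array weights and 2 to 6 when 1 array was left out. With the replicate number as a block 3689 genes and 4 members were called, Bik being the addition, and over probes Bmf (0.0635) and Bik (0.0685) missed the threshold. Deviations of same-numbered null and wild type arrays from their group means correlated at -0.20, 0.15 and 0.42 over genes, so the numbers were not taken as pairs beyond the shared slide, and not every array correlated best with its own number. Of 159 member differences under alternatives, 6 lost a call, all of Bmf, 6 gained one, of Bik or Mcl1, and no called value changed sign. Among the other named genes 62 calls were lost and 5 gained. The cause of these changes was not tested. The number of arrays limits precision.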
